A study of Mustela putorius furo and Mus musculus with 4 samples.

Results

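Collagens are secreted or membrane-bound proteins whose chains wind 3 at a time into a triple helix, and the chains a cell makes decide which trimers it can assemble. Fibrillar collagens form the banded fibres of connective tissue, type IV collagens form the network of basement membranes, FACIT collagens (fibril-associated collagens with interrupted triple helices) attach to the surface of fibrils, and membrane collagens span the plasma membrane. In the brain, collagen is best known from the meninges, the vessel walls and the basement membrane under the astrocyte endfeet, while the tissue between the cells holds little fibrillar collagen. The collagen chains described here are all gene symbols made of COL, a type number, the letter A and a chain number that were present in the values of both species. This rule uses no measured value, and it gave 40 chains of the 13373 gene symbols shared by ferret and mouse. They comprised 11 fibrillar, 6 basement membrane, 8 FACIT, 4 membrane, 4 beaded filament, 3 short chain network and 2 multiplexin chains and 2 chains of other kinds.

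RNA was sequenced from cultured primary astrocytes of the cerebral cortex, with 2 libraries from ferrets (Mustela putorius furo) at postnatal day 1 and 2 libraries from ICR mice at postnatal day 1 to 3. No treatment distinguished the groups: both were grown for 14 days as mixed glia in medium with 10% fetal bovine serum, shaken, replated and kept without serum for the 4 days before RNA was taken. In this procedure the cells of 1 ferret pup filled several flasks whereas 4 mouse pups shared a flask, and nothing states that the duplicate libraries came from separate cultures. The values are FPKM (fragments per kilobase of exon per 1000000 mapped fragments), so levels of different chains are per length, and the p-values measure only the spread between these libraries.

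The FPKM of the shared symbols summed to 227391 and 236543 in ferret libraries against 300465 and 308122 in mouse libraries. The lowest values repeat at a ratio of 1.17 between the ferret libraries and of 0.83 between the mouse libraries, which gives relative but not absolute depth. Read counts were not used here, so no counting interval is given for low levels. The astrocyte label was checked on 11 markers. None was listed at 0 in a library, and their sums were 4704 and 4898 FPKM in ferret against 10270 and 11050 in mouse libraries. Vim and Apoe held most of the mouse sum, so the gap between the sums does not describe the markers in general. By the test given below, 7 of the 11 were lower in ferret, Vim and Apoe among them, and 1, S100b, was higher. Aldoc lay toward ferret but was not called. Over all genes tested the same test called 30.1% lower and 13.1% higher, which is the background for every marker count. Gfap stood between 1429 and 1546 FPKM in all 4 libraries, but Slc1a2, which encodes a glutamate transporter of astrocytes, had 0.133 and 0.178 FPKM in the ferret libraries. Of other cell types, microglial markers summed to 11.7 to 12.98 FPKM in the ferret and 919 to 939 in the mouse libraries (15 of 15 tested lower in ferret, Cx3cr1 at 0 in both ferret libraries), and oligodendrocyte and Schwann lineage markers to 251 to 275 and 69.0 to 69.1 (4 of 9 tested higher in ferret, Mog at 0 in mouse replicate 2). Neuronal markers summed to 12.0 to 12.6 FPKM in the ferret and 1.69 to 1.96 in the mouse libraries, with 3 of 3 tested higher in ferret and Rbfox3 at 0 in ferret replicate 1. Many markers of these other cell types passed the filter of the test through 1 species alone, where a gene is favoured to differ. Species, genome annotation and culture cannot be told apart in this design, and in RNA of whole cultures fewer cells of a type and less RNA per cell cannot be told apart either.

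In the part of a collagen gene that encodes the triple helix, a glycine codon stands at the first place of each triplet of codons. It is shown here for Col3a1, Col4a6, Col5a2 and Col23a1 as a coding exon of the mouse gene from GENCODE M21 on GRCm38. Among the chains tested below on log2(FPKM + 1), Col3a1 and Col4a6 had the largest species differences and Col5a2 the smallest. Col23a1 had the largest difference toward ferret on that scale. With 0.1 in place of 1 as the added constant (pseudocount), Col23a1 stood at 4.19, below Col19a1 at 4.77 and Col24a1 at 4.38. Capitals mark the glycine codons. The Col3a1 exon lies at chr1:45325360-45325413 on the plus strand (exon 6), the Col5a2 exon at chr1:45434892-45434945 on the minus strand (exon 6), the Col4a6 exon at chrX:141234074-141234208 on the minus strand (exon 4) and the Col23a1 exon at chr11:51557471-51557587 on the plus strand (exon 9).
Col3a1: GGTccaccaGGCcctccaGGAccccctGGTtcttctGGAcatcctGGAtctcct
Col5a2: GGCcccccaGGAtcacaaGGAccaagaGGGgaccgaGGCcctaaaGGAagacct
Col4a6: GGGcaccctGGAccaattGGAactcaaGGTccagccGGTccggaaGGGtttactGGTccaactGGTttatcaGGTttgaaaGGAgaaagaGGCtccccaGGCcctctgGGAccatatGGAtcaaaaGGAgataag
Col23a1: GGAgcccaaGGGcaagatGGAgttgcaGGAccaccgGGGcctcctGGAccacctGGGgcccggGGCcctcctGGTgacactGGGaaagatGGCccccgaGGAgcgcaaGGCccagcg

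Both fibrillar exons have 54 bases, or 6 triplets. Exons of this length were repeated 21 to 33 times in the coding sequences of the 11 mouse fibrillar genes and 1 to 3 times in the 6 type IV genes. The longest unbroken run of glycine triplets was 344 in Col3a1 and 339 in Col5a2, but 45 in Col4a6, whose helix is broken into 25 runs of 3 or more triplets, and 43 in Col23a1. Col24a1 and Col27a1, with 216 and 217 triplets, had the shortest runs of the fibrillar chains.

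Summed over the 40 chains, collagen took 579 and 591 FPKM in ferret libraries against 1543 and 1500 in mouse libraries. As a share of all shared symbols this was 0.254% and 0.250% in ferret and 0.514% and 0.487% in mouse astrocytes. Col3a1 alone accounted for much of the gap, and without it the shares were 0.252% ± 0.00316 (SD, n = 2) in ferret against 0.373% ± 0.0106 (SD, n = 2) in mouse astrocytes. In both forms the ferret libraries lay below the mouse libraries without overlap, but with 2 libraries a side the smallest two-sided p of the exact permutation test is 0.333.

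Of the 40 chains, 32 had a mean of at least 1 FPKM in a species and were tested with limma on log2(FPKM + 1). A chain was called when its Benjamini-Hochberg adjusted p over all 10204 genes tested was under 0.05 and its log2 difference exceeded 1 in size. By this rule 7 chains had a higher and 11 a lower level in ferret astrocytes, which is 21.9% and 34.4% of those tested. Over all genes tested the same rule called 13.1% higher and 30.1% lower, so the share of lower chains was near the background. Of the called chains, 6 of the 7 higher and 3 of the 11 lower passed the filter through 1 species alone, where a chain is favoured to differ, so the counts are a description. The 6 were Col24a1, Col27a1, Col9a2, Col19a1, Col23a1 and Col28a1 and the 3 were Col4a6, Col9a1 and Col6a3, and the p-values given for these chains carry the same limit. The median log2 difference was -0.67 for the tested chains and -0.35 for all genes tested, and the latter moved to -0.01 when every library was rescaled to the mean of the 4 sums. After that rescaling 7 chains were higher and 9 lower, against 19.1% and 21.7% of all genes. The same 7 and 9 were called after rescaling by median ratio, against 18.0% and 22.9%, and after quantile normalization, against 20.4% and 20.4%. Rescaling each library to a sum of 1000000 gave 8 higher and 12 lower chains, against 21.5% and 24.9% of all genes. The values of the species did not overlap for 39 of the 40 chains, Col17a1 being the exception, where 86.1% of all shared symbols and 94.1% of those tested did not overlap. At the adjusted p alone 31 of the 32 chains passed, Col5a2 being the exception, against 88.6% of all genes tested. Duplicates of a species differed by a median of 0.094 in ferret and 0.05 in mouse astrocytes on the log2 scale over the 32 chains.

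**Figure D1:**
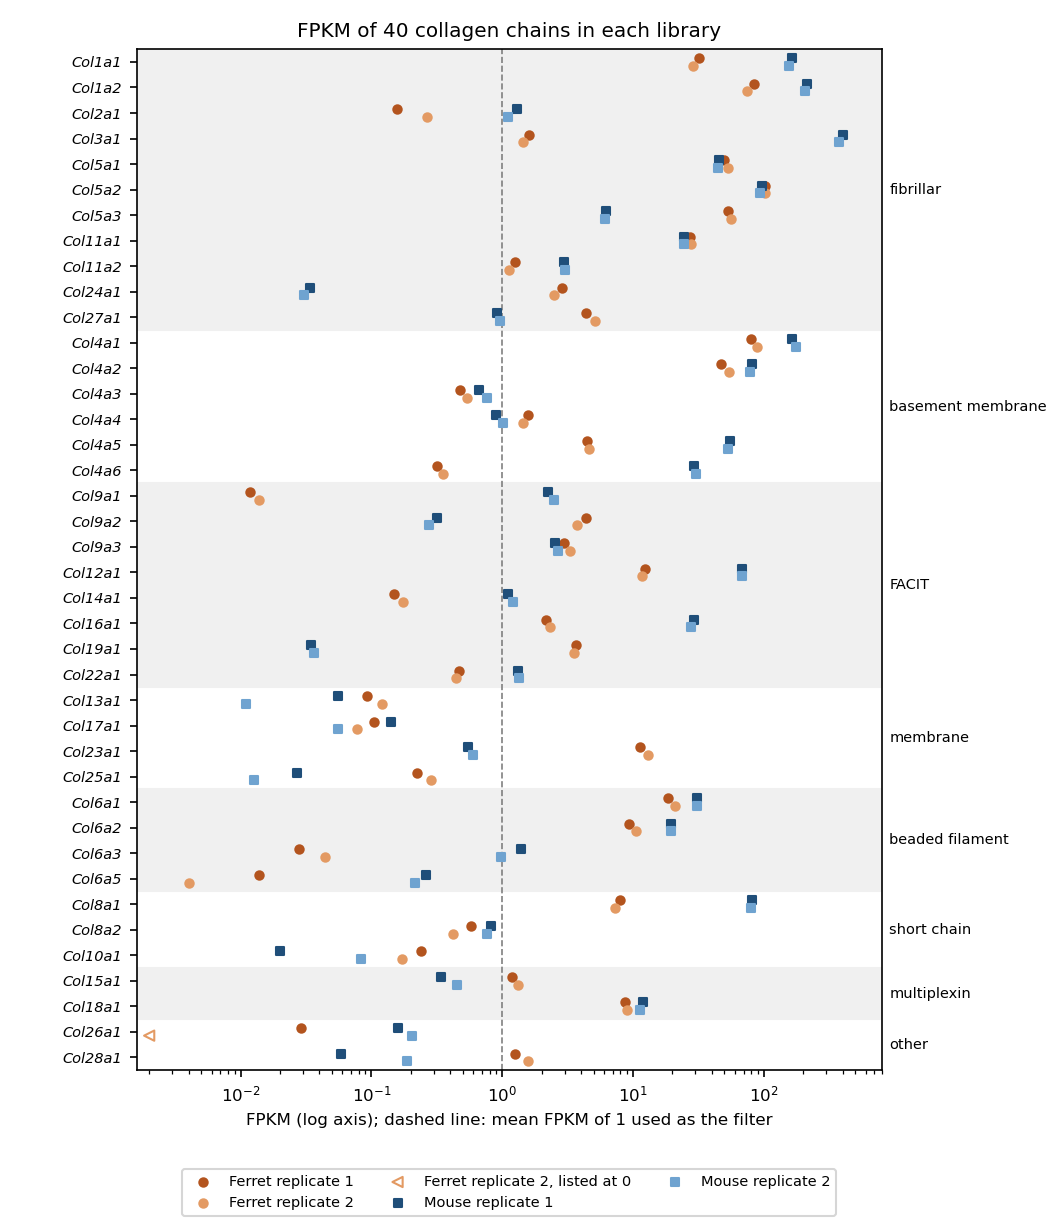
FPKM (log axis) of each of the 40 chains in the 2 ferret libraries (circles) and the 2 mouse libraries (squares), grouped by collagen class, with a dashed line at the filter of 1 FPKM and an open triangle where a chain is listed at 0. Col3a1 has the widest gap among the abundant chains, from 1.43 and 1.6 FPKM in ferret to 375 and 402 in mouse astrocytes, while Col5a1, Col5a2 and Col11a1 lie almost on top of each other.

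The order of the chains differed between the species. In ferret astrocytes the highest chain was Col5a2, followed by Col4a1, Col1a2, Col5a3, Col5a1 and Col4a2. Col4a1 and Col1a2 changed places between the ferret libraries, as did Col5a1 and Col4a2, so these neighbours cannot be ordered, whereas Col5a3 exceeded Col5a1 in both. In mouse astrocytes Col3a1 was first, followed by Col1a2, Col4a1, Col1a1, Col5a2, Col8a1 and Col4a2. The ranges of the last 2 overlapped, with Col8a1 above Col4a2 in both libraries by less than the spread between them. Across the 40 chains the ranks of the mean FPKM had a Spearman correlation of 0.64 between the species, against 0.995 between the ferret duplicates and 0.993 between the mouse duplicates. These are correlations over genes of the same libraries and are given as a description.

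Fibrillar chains took nearly the same part of the collagen sum in both species, at 62.2% and 59.6% in ferret libraries against 62.1% and 60.7% in mouse libraries. Of the 11 fibrillar chains, 3 were called higher and 3 lower, or 27.3% each way, beside 13.1% and 30.1% of all genes tested. The share of lower chains was thus near the background. Of the 3 higher chains, Col24a1 and Col27a1 passed the filter through ferret alone, where a chain is favoured to differ. The median log2 difference was 0.09, or 0.48 after rescaling to the mean sum, beside -0.35 and -0.01 for all genes tested. The chains that made up most of the fibrillar part of the collagen sum were not the same. Type V chains (Col5a1, Col5a2 and Col5a3), which build the fine fibrils at the core of larger ones, took 35.6% ± 0.0951 (SD, n = 2) of the sum in ferret against 9.64% ± 0.00365 (SD, n = 2) in mouse astrocytes. The chains of types I and III (Col1a1, Col1a2 and Col3a1), the bulk collagens of connective tissue, took 19.1% ± 1.93 (SD, n = 2) and 49.8% ± 1.02 (SD, n = 2).

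**Figure D2:**
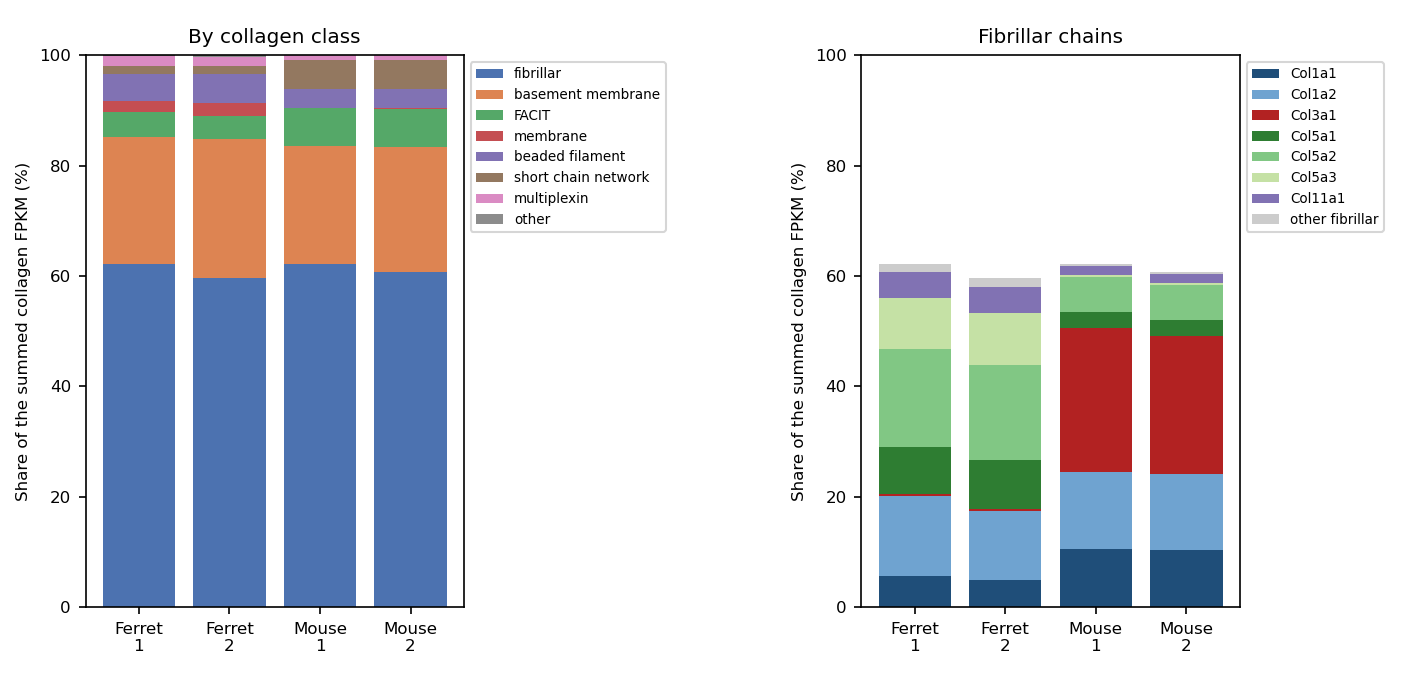
Stacked bars of the share of the summed collagen FPKM (%) in each library, by collagen class on the left and for the fibrillar chains alone on the right. The fibrillar part ends at about the same height in all 4 bars, from 59.6% to 62.2%, and Col3a1 fills 26.0% and 25.0% of the mouse bars but 0.277% and 0.242% of the ferret bars.

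Col3a1, the sole chain of type III collagen, had 1.6 and 1.43 FPKM in ferret libraries against 402 and 375 in mouse libraries. The mouse values were 256 times the ferret values on the mean, and the log2 difference was -7.27 (95% confidence interval -7.42 to -7.13, adjusted p = 2.38e-12 by limma). Relative to the median of all genes it was -6.93, and it lay between -7.41 and -6.91 under 4 other scalings of the libraries. On chromosome 1 of the mouse (GRCm38, plus strand) the gene spans bases 45311538 to 45349706, and its neighbour Col5a2 follows after 24614 bases on the opposite strand. Col5a2, the α2 chain of type V collagen, had 102 and 101 FPKM in ferret and 97.4 and 93.9 in mouse astrocytes, which is a log2 difference of 0.09 (95% confidence interval -0.04 to 0.22, adjusted p = 0.154 by limma). Under the other scalings it was 0.42 to 0.48 with an adjusted p of at most 0.000111, still short of a call. Within a library the ratio of Col3a1 to Col5a2 was 0.0156 and 0.0141 in ferret and 4.13 and 3.996 in mouse astrocytes.

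The chains of type I collagen were lower in ferret astrocytes as well. Col1a1, its α1 chain, had 32.2 and 28.8 FPKM in ferret libraries against 164 and 156 in mouse libraries, which is a log2 difference of -2.36 (95% confidence interval -2.51 to -2.20, adjusted p = 7.13e-10 by limma). Col1a2, the α2 chain, had 84.6 and 74.6 FPKM in ferret and 215 and 205 in mouse astrocytes, which is a log2 difference of -1.39 (95% confidence interval -1.55 to -1.23). Under the other scalings Col1a2 came to between -1.06 and -1.01 or, rescaled to the mean sum, to -1.0, at the limit for a call. The type I trimer contains more α1 than α2 chains, but Col1a2 exceeded Col1a1 in all 4 libraries. The ratio of Col1a1 to Col1a2 was 0.381 and 0.386 in ferret libraries against 0.763 and 0.761 in mouse libraries, so the pair differed between the species in balance as well as in level.

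Meningeal fibroblast markers moved with these chains. Of 12 markers tested, 11 were lower in ferret astrocytes, beside 30.1% lower and 13.1% higher over all genes tested. The other, Pdgfra, was not called and lay toward ferret at a log2 difference of 0.77. Many of these markers passed the filter through mouse alone, where a gene is favoured to differ. The 13 markers measured in both species summed to 13.1 to 15.1 FPKM in the ferret and 1065 to 1102 in the mouse libraries. More of the mouse sum came from Serpinf1 than from all the other markers together. Ogn, a small proteoglycan of fibroblasts, had 1.19 ± 0.288 FPKM (SD, n = 2) in ferret against 159.5 ± 2.22 (SD, n = 2) in mouse astrocytes. Mgp is listed at 0 in both ferret libraries and Slc6a13 in both mouse libraries. Mural cell markers summed to 171 to 195 and 1135 to 1177 FPKM, with Rgs5 at 0 in both ferret libraries. Of 7 tested, 4 were lower and 2 higher in ferret astrocytes. Most of each sum came from Tagln (mean 140.6 FPKM in ferret, 892 in mouse astrocytes) and Acta2 (21.6 and 230). The 2 higher were Kcnj8 (11.5 and 0.0186) and Higd1b (1.61 and 0.0492), which passed the filter through ferret alone. Of the 4 lower, Anpep passed it through mouse alone. Endothelial markers summed to 0.599 to 0.628 and 28.9 to 29.3 FPKM, and 3 of 3 tested were lower in ferret. All 3 passed the filter through mouse alone, where a gene is favoured to differ. Cdh5, with a mean of 22.2 FPKM, held most of the mouse sum. Cdh5 and Tek were at 0 in both ferret libraries and Cldn5 at 0 in both mouse libraries. Pecam1 was at 0 in both ferret libraries and near 0 in the mouse libraries, at 0.0407 and 0.0312 FPKM. The part of these cells in the collagen differences was not tested.

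Col5a3, the α3 chain of type V collagen, was the most abundant chain higher in ferret astrocytes. It had 53.5 and 56.2 FPKM in ferret libraries against 6.26 and 6.15 in mouse libraries, which is a log2 difference of 2.95 (95% confidence interval 2.81 to 3.10, adjusted p = 1.15e-10 by limma). Col5a1, the α1 chain with which it combines, had 49.7 and 53.3 FPKM in ferret and 45.1 and 44.6 in mouse astrocytes. Col5a3 thus stood at 1.08 and 1.06 times Col5a1 in the ferret libraries and at 0.139 and 0.138 times in the mouse libraries. The ratio of Col5a1 to Col5a2 stayed between 0.464 and 0.526 in all 4 libraries.

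Col11a1, a type XI chain that resembles Col5a1 and can replace it in fibrils, had 27.2 and 27.5 FPKM in ferret libraries against 24.4 and 24.7 in mouse libraries. Its ratio to Col5a1 was 0.546 and 0.517 in ferret and 0.540 and 0.554 in mouse astrocytes, with overlap between the species. The log2 differences of Col5a1 and Col11a1 were 0.19 (95% confidence interval 0.06 to 0.33) and 0.15 (0.02 to 0.28). The direction of these small differences held under the other scalings, where they lay between 0.52 and 0.59 and between 0.47 and 0.54, still under the limit for a call.

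Among the rarer fibrillar chains, Col27a1 and Col24a1 were higher in ferret astrocytes. Col27a1 had 4.38 and 5.13 FPKM in ferret libraries against 0.920 and 0.969 in mouse libraries. Col24a1 had 2.84 and 2.49 FPKM in ferret and 0.0340 and 0.0305 in mouse astrocytes. Their log2 differences were 1.56 and 1.83 (adjusted p = 6.79e-08 and 1.39e-08 by limma), and the difference of Col24a1 was 4.38 with a pseudocount of 0.1, since its mouse level lies far below 1. Col2a1, the chain of cartilage fibrils, and Col11a2 lay in the other direction, at 0.212 ± 0.0792 and 1.19 ± 0.0774 FPKM in ferret and 1.21 ± 0.131 and 3.01 ± 0.0297 in mouse astrocytes (SD, n = 2), and were not called.

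**Figure D3:**
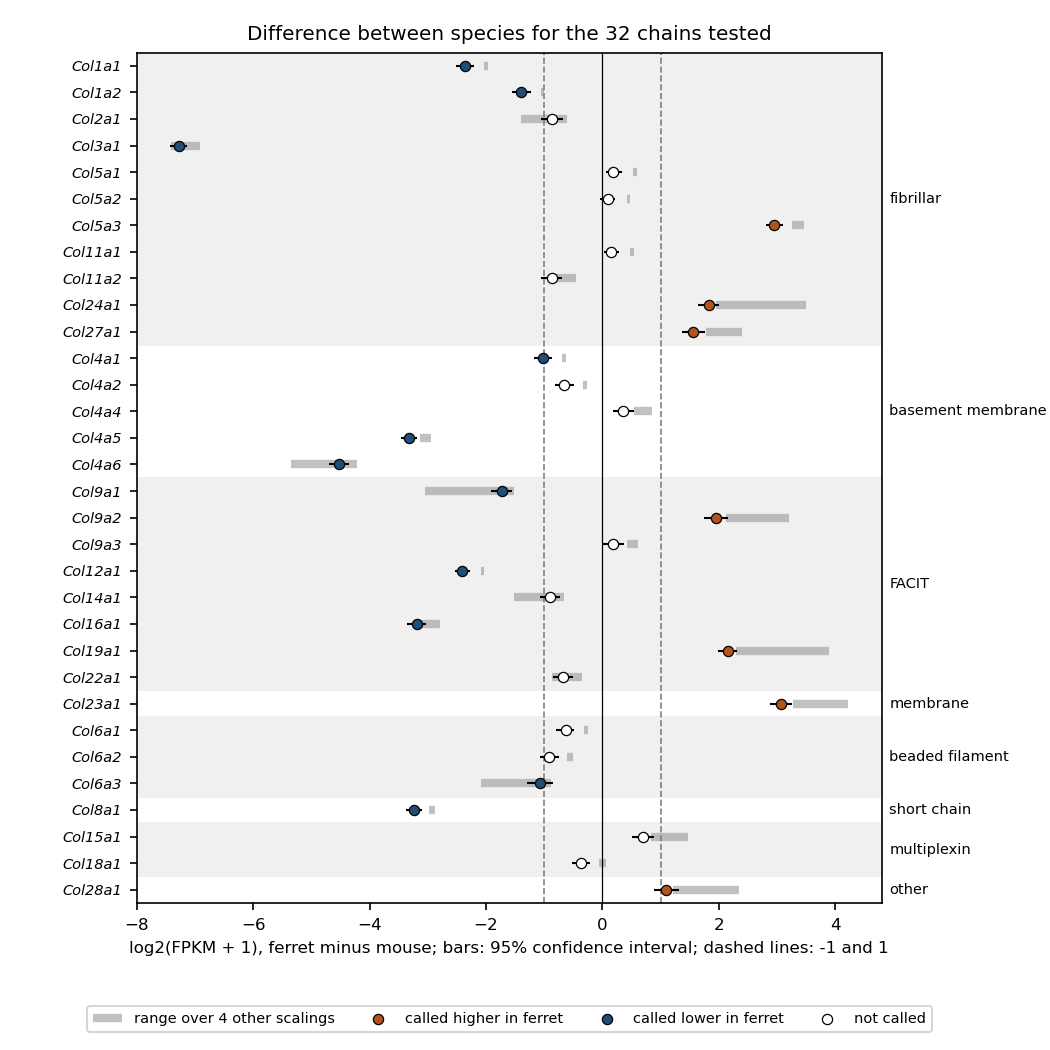
Difference between species on the log2(FPKM + 1) scale (ferret minus mouse) for the 32 chains tested, with 95% confidence intervals from limma and, in grey, the range over 4 other scalings of the libraries, of which the rescaling to 1000000 also makes the pseudocount relatively smaller. Points beyond the dashed lines at -1 and 1 are called; Col4a1, at -1.02, is the called chain nearest to a line.

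Type IV chains of the basement membrane took 23.0% and 25.2% of the collagen sum in the ferret and 21.5% and 22.7% in the mouse libraries. Their 6 genes lie in head-to-head pairs in the mouse, with 21 bases between the 5′ ends of Col4a1 and Col4a2, whose gene bodies share bases, 72 between Col4a3 and Col4a4, and 1309 between Col4a5 and Col4a6. Reads from the shared bases of Col4a1 and Col4a2 could be split between them, since the strand setting of the counting is not given in the sources used here. Of the 5 type IV chains tested, 3 were called lower and 0 higher by limma, beside 30.1% and 13.1% of all genes. All 5 had an adjusted p under 0.05, as did 88.6% of all genes. The pair that makes the common network, Col4a1 and Col4a2, was abundant in both species. Col4a1 had 79.7 and 88.2 FPKM in ferret libraries against 165 and 177 in mouse libraries, which is a log2 difference of -1.02 (95% confidence interval -1.17 to -0.87). Under the other scalings it was -0.69 to -0.63 and not called. It was -0.95 without ferret replicate 1 and -0.97 without mouse replicate 2, also short of a call. Col4a2 had 46.6 and 53.96 FPKM in ferret and 80.7 and 78.5 in mouse astrocytes, which is a log2 difference of -0.66 that was not called. The ratio of Col4a1 to Col4a2 was 1.71 and 1.63 in ferret and 2.05 and 2.25 in mouse astrocytes.

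The pair on the X chromosome of the mouse differed far more. Col4a5, which joins either α3 and α4 or α6 in specialised basement membranes, had 4.47 and 4.62 FPKM in ferret libraries against 55.3 and 53.4 in mouse libraries. Its log2 difference was -3.32 (95% confidence interval -3.46 to -3.18, adjusted p = 6.39e-11 by limma). Col4a6, its partner in the α5 and α6 network, had 0.317 and 0.352 FPKM in ferret and 29.2 and 30.3 in mouse astrocytes, which is a log2 difference of -4.53 (95% confidence interval -4.69 to -4.36, adjusted p = 2.95e-11). With a mean ferret level of 0.334 FPKM this difference depended on the pseudocount and was -6.10 with 0.1. The genes of this pair were unequal in ferret astrocytes, with 14.1 and 13.1 times as much Col4a5 as Col4a6, against 1.89 and 1.76 times in mouse astrocytes. Col4a3 and Col4a4, the chains of the glomerular basement membrane, were low in both species. Col4a3 had 0.504 ± 0.0444 FPKM (SD, n = 2) in ferret against 0.714 ± 0.0755 (SD, n = 2) in mouse astrocytes and was not tested, and Col4a4, at 1.504 ± 0.0915 and 0.957 ± 0.0897 (SD, n = 2), was not called.

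**Figure D4:**
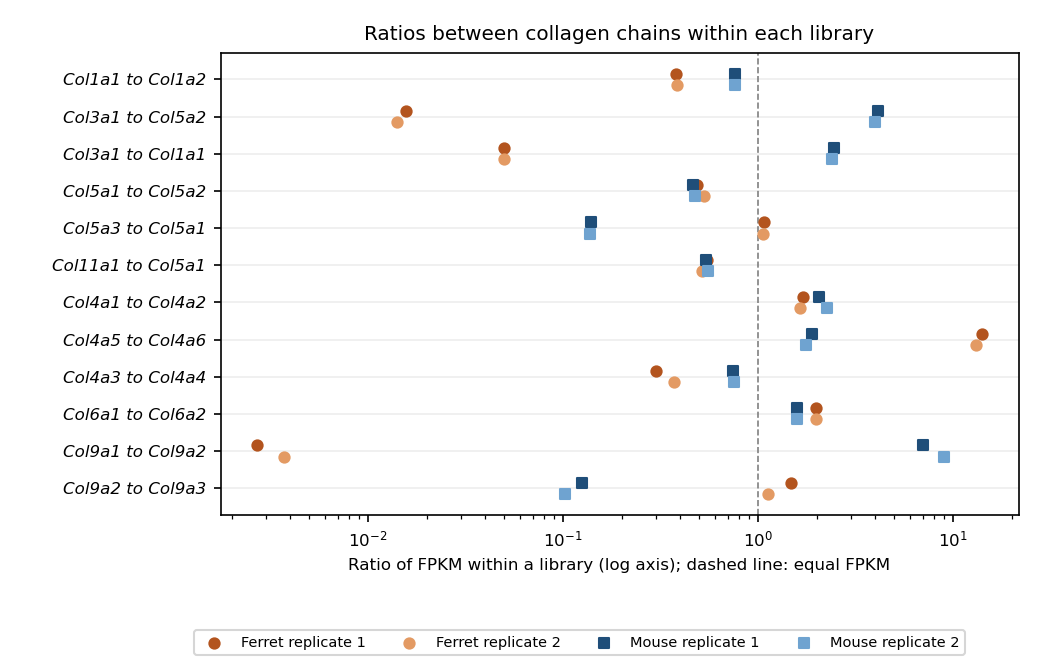
Ratio of FPKM between chains of a library (log axis) for 12 pairs of chains in the 2 ferret libraries (circles) and the 2 mouse libraries (squares), with a dashed line at equal FPKM. Col9a1 to Col9a2 lies near 0.003 in ferret and at 7.0 and 9.01 in mouse astrocytes, whereas Col11a1 to Col5a1 overlaps between the species.

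FACIT chains took 4.51% and 4.27% of the collagen sum in the ferret and 6.83% and 6.91% in the mouse libraries. Of the 8 chains tested, 2 were called higher and 3 lower in ferret astrocytes. That is 25.0% and 37.5%, beside 13.1% and 30.1% of all genes tested. The 2 higher chains, Col9a2 and Col19a1, and the lower Col9a1 passed the filter through 1 species alone. Col12a1, which coats type I fibrils, had 12.3 and 11.8 FPKM in ferret libraries against 68.5 and 67.7 in mouse libraries, which is a log2 difference of -2.41 (95% confidence interval -2.54 to -2.27, adjusted p = 2.79e-10 by limma). Col16a1, which is found on thin fibrils and near basement membranes, had 2.14 and 2.32 FPKM in ferret and 29.3 and 27.8 in mouse astrocytes, which is a log2 difference of -3.19 (95% confidence interval -3.35 to -3.03, adjusted p = 1.53e-10). The ratio of Col12a1 to Col1a2 was 0.146 and 0.158 in ferret and 0.319 and 0.331 in mouse astrocytes.

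Type IX collagen, known from the surface of cartilage fibrils, is built from the products of Col9a1, Col9a2 and Col9a3, and the chain with the lowest level was not the same in the species. Col9a1 had 0.0117 and 0.0137 FPKM in ferret libraries against 2.24 and 2.48 in mouse libraries. Col9a2 showed the opposite, with 4.35 and 3.70 FPKM in ferret and 0.320 and 0.276 in mouse astrocytes. Col9a3 was near in both species, at 2.97 and 3.29 FPKM in ferret and 2.55 and 2.68 in mouse astrocytes. The log2 differences of Col9a1 and Col9a2 were -1.73 and 1.95 and both were called, but each passed the filter only through the species where it is high. The third chain was at 0.19 (95% confidence interval 0.01 to 0.37).

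Col19a1, a FACIT chain of basement membrane zones, had 3.66 and 3.54 FPKM in ferret libraries against 0.0348 and 0.0365 in mouse libraries, which is a log2 difference of 2.15 (95% confidence interval 1.98 to 2.32, adjusted p = 2.54e-09 by limma). In the mouse genome it lies 9205 bases from Col9a1, on the opposite strand, and that neighbour was lower in ferret astrocytes. Col14a1 and Col22a1 had 0.161 and 0.454 FPKM in ferret and 1.16 and 1.33 FPKM in mouse astrocytes on the mean and were not called.

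Among the membrane collagens, Col23a1 had 11.4 and 13.1 FPKM in ferret libraries against 0.550 and 0.597 in mouse libraries, which is a log2 difference of 3.07 (95% confidence interval 2.88 to 3.26, adjusted p = 5.77e-10 by limma). The ferret values were 21.3 times the mouse values on the mean, and Col23a1 made up 1.97% and 2.21% of the ferret collagen sum. The other membrane chains, Col13a1, Col17a1 and Col25a1, had a mean under 1 FPKM in both species and were not tested. Their values ranged from 0.0771 to 0.287 FPKM in the ferret and from 0.0109 to 0.142 in the mouse libraries, and those of Col17a1, a chain of skin hemidesmosomes, overlapped between the species.

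Type VI chains, which form beaded filaments around cells, were carried by Col6a1 and Col6a2. Col6a1 had 18.6 and 20.7 FPKM in ferret libraries against 31.0 and 31.0 in mouse libraries, and Col6a2 had 9.37 and 10.5 in ferret and 19.6 and 19.5 in mouse astrocytes. Their log2 differences of -0.63 and -0.91 were not called. Col6a3, the chain that completes the trimer, was far lower than its partners in both species, at 0.0280 and 0.0438 FPKM in ferret and 1.39 and 0.986 in mouse astrocytes. Its log2 difference of -1.07 was called with FPKM as deposited but lay between -0.98 and -0.88 and was not called under 3 of the other scalings. Without mouse replicate 1 it fell below the filter. Col6a5 had under 0.3 FPKM in every library.

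Col8a1, a short chain of sheet-like networks in vessel walls and the cornea, had 7.93 and 7.34 FPKM in ferret libraries against 81.2 and 79.6 in mouse libraries, which is a log2 difference of -3.24 (95% confidence interval -3.38 to -3.09, adjusted p = 7.38e-11 by limma). It took 1.37% and 1.24% of the collagen sum in ferret and 5.26% and 5.31% in mouse astrocytes. Its partner Col8a2 and the growth plate chain Col10a1 stayed under 1 FPKM in all 4 libraries.

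Col18a1, a multiplexin of basement membranes and the precursor of endostatin, had 8.70 and 9.04 FPKM in ferret libraries against 12.0 and 11.4 in mouse libraries. Its log2 difference of -0.36 (95% confidence interval -0.52 to -0.21) matched the median of all genes and turned to 0.06 after quantile normalization, so it gave no direction. Col15a1, the other multiplexin, had 1.18 and 1.33 FPKM in ferret and 0.343 and 0.454 in mouse astrocytes and was not called. Col28a1, a type XXVIII chain known from peripheral nerve, had 1.26 and 1.57 FPKM in ferret and 0.0581 and 0.188 in mouse astrocytes, which is a log2 difference of 1.10 (95% confidence interval 0.89 to 1.32, adjusted p = 1.92e-06 by limma). The summed oligodendrocyte and Schwann lineage markers given above were also higher in the ferret libraries, and their relation to Col28a1 was not tested. Col26a1 is listed at 0 in ferret replicate 2 and had 0.0291 FPKM in ferret replicate 1 and 0.158 and 0.205 in the mouse libraries.

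A further 5 collagen symbols had values in 1 species alone in the data used here and could not be compared. Col21a1 had 1.86 and 1.73 FPKM in the ferret libraries. In the mouse libraries Col7a1, the chain of anchoring fibrils in skin, had 6.42 and 6.21 FPKM, Col20a1 had 1.54 and 0.839, and Col6a4 and Col6a6 stayed under 0.1 FPKM.

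The enzymes that act on collagen inside and outside the cell were described by the same test. Of 20 genes for modification and secretion, 6 were lower and 0 higher in ferret astrocytes by limma, with 17 at an adjusted p under 0.05 whatever the size. Over all genes tested 30.1% were lower and 13.1% higher and 88.6% passed the adjusted p alone, so the counts of this list, with 30.0% lower, were at the background. Their median log2 difference was -0.41, or -0.04 after rescaling to the mean of the 4 sums, and 1 gene, Plod1, a lysyl hydroxylase named after its values were seen, was then called higher at 1.34. Serpinh1, the collagen chaperone HSP47, had 260 and 286 FPKM in ferret libraries against 251 and 254 in mouse libraries, which is a log2 difference of 0.11 with an adjusted p of 0.131. Ppib, a cyclophilin that helps the helix to fold, had 428 and 476 FPKM in ferret and 298 and 304 in mouse astrocytes and was not called. P4ha3 and P4ha1, subunits of prolyl 4-hydroxylase, were lower, with log2 differences of -3.36 and -1.29, and the latter was not called after rescaling to the mean of the 4 sums, at -0.91.

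Of 13 genes for trimming and cross-linking that were tested, 8 were lower and 0 higher in ferret astrocytes by limma, with 12 at an adjusted p under 0.05. That is 61.5% lower, beside 30.1% lower, 13.1% higher and 88.6% at the adjusted p alone over all genes. The median log2 difference of the 13 was -1.54, or -1.24 after the same rescaling, beside -0.35 and -0.01 for all genes. Of the 8 lower genes, Pcolce, Tll1 and Pcolce2 passed the filter through mouse alone, where a gene is favoured to differ. The counts are thus a description, and the p-value given for Pcolce carries the same limit. Lox, the lysyl oxidase that cross-links fibrils, had 42.5 and 34.6 FPKM in ferret libraries against 394 and 374 in mouse libraries, which is a log2 difference of -3.29. Pcolce, which speeds the trimming of fibrillar procollagens, had 0.738 and 0.679 FPKM in ferret and 93.3 and 88.1 in mouse astrocytes, which is a log2 difference of -5.75 (adjusted p = 6.85e-12). Bmp1, the protease that does this trimming, and Loxl2 were lower by log2 differences of -2.59 and -1.62. The fibroblast and mural marker sums given above moved in the same direction as these genes, and their part was not tested. Serpinf1 held most of the fibroblast sum in mouse. Tagln and Acta2 held most of the mural sum, and Kcnj8 and Higd1b went the other way.

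Of 9 collagen receptor genes tested, 4 were lower and 3 higher in ferret astrocytes, or 44.4% and 33.3%, beside 30.1% and 13.1% of all genes. The median of their log2 differences was -0.11, or 0.12 after the same rescaling. Itgb1, the β1 subunit of collagen-binding integrins, had 157 and 144 FPKM in ferret libraries against 647 and 648 in mouse libraries, which is a log2 difference of -2.10. Mrc2, a receptor that takes up collagen for breakdown, had 1.51 ± 0.0256 FPKM (SD, n = 2) in ferret against 53.3 ± 1.57 (SD, n = 2) in mouse astrocytes. Ddr1, a kinase activated by collagen, had 173 and 176 FPKM in ferret and 182 and 196 in mouse astrocytes, which is a log2 difference of -0.11 with an adjusted p of 0.106, and its direction turned after rescaling to the mean of the 4 sums, at 0.28. The genes called higher were Adgrg1, Itga2 and Itga11, the last 2 named after their values were seen. Itga2 and Itga11 had mouse means of 0.697 and 0.700 FPKM and passed the filter through ferret alone, where a gene is favoured to differ. The share of higher receptor genes carries that limit. Adgrg1, which encodes the adhesion receptor GPR56 that binds type III collagen in the developing cortex, had 68.4 and 76.6 FPKM in ferret and 30.1 and 32.9 in mouse astrocytes, which is a log2 difference of 1.18 (limma, adjusted p = 1.58e-07), beside the 256-fold lower level of its ligand gene Col3a1.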

How the data were processed

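Per the labels and the methods of the study, stranded polyA-selected libraries (2 from ferret and 2 from mouse astrocytes) were aligned by the authors with STAR 2.7.0f to MusPutFur1.0 and GRCm38 with Ensembl annotation. The authors deposited 1 FPKM value per gene and library from Cufflinks 2.2.1. Ferret gene models were not analysed here. Symbols were matched in upper case, and for a symbol with several values the one with the highest species mean was kept (7 in ferret and 13 in mouse, no collagen among them). Genes with a mean of at least 1 FPKM in a species were compared on log2(FPKM + 1) with limma 3.58.1 in R 4.3.3 (empirical Bayes with trend, Benjamini-Hochberg adjustment), called at an adjusted p under 0.05 and a log2 difference above 1 in size. This scale makes the change of a low gene look smaller than it is. The fit was tested on simulated data. Values, shares and ratios were computed with Python 3.11.15 and pandas 2.3.3. Chains with a mean of at least 10 FPKM in a species, chains called higher and chains listed at 0 were to be given by library, and of pathway lists the 4 and of marker lists the 2 highest members. The other chains with values of their own, among them Col9a1 and Col6a3, were named after their values were seen. So were Gfap, Slc1a2, S100b, Aldoc, Itga2, Itga11, Plod1, Tll1, Pcolce2, Kcnj8, Higd1b, Anpep, Pdgfra and markers at 0. The members and lists were chosen with earlier results of these data known. Pdgfra is on 2 marker lists, and the study itself names Serpinf1, Mgp and Pcolce as mouse-specific in these libraries. Mouse positions and coding exons are those of the longest coding transcript in GENCODE M21 (GRCm38), a release other than the authors'. The values of 1 marker gene are not reported here.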

Additional observations from a re-analysis of the deposited data

How the results depend on the processing

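Of the 32 chains tested, 27 kept their direction and their side of the limits with a pseudocount of 0.1, 28 with each library set to 1000000, 30 with each set to the mean sum or scaled by median ratio and 29 after quantile normalization, and all 32 did without a filter, with the values of a symbol summed and with its first value. The chain Col18a1 reversed, to 0.06, after quantile normalization. An alternative chosen after seeing the data, no filter with a pseudocount of 0.1, kept 27. With a pseudocount of 0.1 and the filter, 5 fibrillar and 5 FACIT chains were lower and 1 multiplexin chain was higher in ferret, and the last was also higher (1 chain) after rescaling to 1000000. No beaded filament chain (0) was lower after rescaling to the mean sum or by median ratio, or after quantile normalization, and the count was 0 to 1 when each library was left out in turn. Of the genes for modification and secretion, 1 was higher under each of the 4 other scalings. Over all genes, 2197 were higher in ferret after rescaling to 1000000 and 2080 after quantile normalization, against 1336. Leaving out ferret replicate 1 or mouse replicate 2 took Col4a1 under the limit. The replicate numbers come from the labels alone, and same-numbered libraries of the species had a correlation of 0.0132 over 9832 genes. With the replicate block, 7 chains were higher and 11 lower, and 1342 and 3072 of all genes. Read counts were not used here, so no counting interval is given for the low chains.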
